A study of Mus musculus with 4 samples.

Results

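The nuclear oxidative phosphorylation genes are the nuclear-encoded genes for the respiratory chain and the ATP synthase, taken here as every gene whose symbol begins with Nduf, Cox4i, Cox5, Cox6, Cox7, Cox8, Uqcr or Atp5. Of 19001 gene symbols listed in all 4 deposited matrices, 88 met this rule. They comprised 37 genes of complex I, 8 complex I assembly factors of the Ndufaf group, 8 genes of complex III, 18 of complex IV, with Ndufa4 and Ndufa4l2 counted there, and 17 of complex V. Cox7b2 was listed in 3 matrices and Cox8c in 1, both without a UMI, and they were not counted as members. Complex II, cytochrome c and the mitochondrially encoded mt- genes lie outside the rule and were used for comparison.

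The libraries were single-cell RNA-seq libraries of periwound skin from C57/BL6j mice, 6 weeks old, taken on postoperative day 7. The hucMSC-Exo group (hucMSC-Exo 1 and hucMSC-Exo 2) received exosomes of human umbilical cord mesenchymal stem cells under the skin around the wound, and the control group (Control 1 and Control 2) received PBS. Each library came from 1 mouse, so that 2 mice stood against 2, drawn from 6 per group, and all mice carried the same wound. The labels name skin as the cell type but parts of the gut as the tissue. File-name letters of the matrices would pair the 4 libraries in another way than the titles do. The titles were followed throughout.

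The matrices held 1098 to 2422 cell barcodes per library, fewer than the cells the study describes, with 6657095 to 16950639 UMIs in total. After the limits of 200 to 3000 detected genes and at most 10% of UMIs from mt- genes, 952 to 2074 cells per library remained. Ptprc, the pan-leukocyte gene, was detected in 81.4 to 87.1% of them, and keratinocyte and fibroblast markers took 0.110 to 0.143% of UMIs, so the skin label stood beside cells that were leukocytes by their markers. Cells were put into classes by marker genes only, and 85.9 to 90.5% of kept cells received a class. In every class but the osteoclast-like cells, where 1 of 10 markers was at 0, each marker of the class was detected. Libraries shared at most 2 barcodes.

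Oxidative phosphorylation couples the transfer of electrons from NADH and succinate to oxygen with the pumping of protons across the inner mitochondrial membrane. Complexes I, III and IV pump, and complex V, the ATP synthase, uses the gradient to make ATP. All except complex II are built from subunits of both genomes, so nuclear and mt- transcripts must meet in the same complexes. Leukocytes are known to differ in how far they use this route: mature neutrophils rely chiefly on glycolysis and hold few mitochondria, whereas bone-resorbing osteoclasts are rich in them.

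Transcription of many of these genes is known to involve the factors NRF1 and GABPA, the latter a member of the ETS family. RefSeq promoter windows (build GRCm38.p6, from 250 bases before to 50 bases after the start of transcription) were matched for 73 of the 88 members. The NRF1 core GCATGCGC, read on both strands, was in 11 of the 73 windows (15.1%) and in 3.05% of the windows of all 27025 genes. The ETS core CCGGAAG, read on both strands, was in 17 of 73 (23.3%) and in 9.93% of all. Either core was held by 24 members (32.9%; all genes, 12.4%), and both by 4. The first windows printed here belong to Atp5k and Uqcr11, which held both cores and were lower in neutrophil-like cells. The other members with both cores, Atp5l and Cox6a1, were not called lower there (log2 fold change 0.03 and -0.05). The last window belongs to Ndufc2, the member that was lowest in neutrophil-like cells and that held neither. Sequences run 5′ to 3′ on the strand of the gene, and capitals mark the cores, which can overlap each other.
Atp5k, chr5:108434350-108434649, minus strand: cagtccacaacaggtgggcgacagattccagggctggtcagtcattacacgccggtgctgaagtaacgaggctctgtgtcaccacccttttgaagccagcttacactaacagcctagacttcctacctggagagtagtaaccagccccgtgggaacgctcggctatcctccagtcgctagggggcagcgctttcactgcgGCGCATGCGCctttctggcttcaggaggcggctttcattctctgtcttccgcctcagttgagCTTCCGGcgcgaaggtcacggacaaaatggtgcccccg
Uqcr11, chr10:80406772-80407071, minus strand: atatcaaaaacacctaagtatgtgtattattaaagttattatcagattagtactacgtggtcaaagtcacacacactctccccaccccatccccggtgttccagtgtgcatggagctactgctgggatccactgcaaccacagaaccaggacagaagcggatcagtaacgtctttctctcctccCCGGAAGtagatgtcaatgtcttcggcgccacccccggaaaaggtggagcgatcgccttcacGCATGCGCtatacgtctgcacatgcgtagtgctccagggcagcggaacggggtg
Ndufc2, chr7:97399753-97400052, plus strand: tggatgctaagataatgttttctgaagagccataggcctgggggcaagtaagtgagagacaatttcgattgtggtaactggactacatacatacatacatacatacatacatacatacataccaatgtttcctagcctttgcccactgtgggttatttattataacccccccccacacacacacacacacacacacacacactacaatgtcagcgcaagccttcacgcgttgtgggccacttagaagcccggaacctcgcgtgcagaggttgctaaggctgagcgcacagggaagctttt
A match of letters describes the window and shows no binding.

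Across all kept cells, the 88 members took 1.87% ± 0.06 (SD, n = 4 libraries) of UMIs and the 13 mt- genes took 2.96%, a ratio of nuclear to mt- UMIs of 0.636. The share was 1.89% in Control 1, 1.86% in Control 2, 1.94% in hucMSC-Exo 1 and 1.80% in hucMSC-Exo 2. Among classes with at least 10 cells in 2 or more libraries, the mean share ranged from 0.929% in basophil-like to 3.11% in osteoclast-like cells. Plasmacytoid dendritic cell-like cells followed at 2.56%, NK cell-like cells at 2.19% and dendritic cell-like cells at 2.03%. IL-17 gamma delta T cell-like cells (1.97%), alpha beta T cell-like cells (1.91%), dendritic epidermal T cell-like cells (1.91%), group 2 innate lymphoid cell-like cells (1.87%), macrophage-like cells (1.84%) and monocyte-like cells (1.76%) lay close together, and each of these neighbours overlapped the next in its range over libraries. The macrophage-like cells varied least, from 1.81 to 1.86%. Neutrophil-like cells (1.09% ± 0.08, SD, n = 4) stood below all of them in every library, and overlapped in range with none of them. Basophil-like cells lay from 0.887 to 0.988% in 3 libraries, and the lowest neutrophil-like library, at 0.992%, was just above them.

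**Figure D1:**
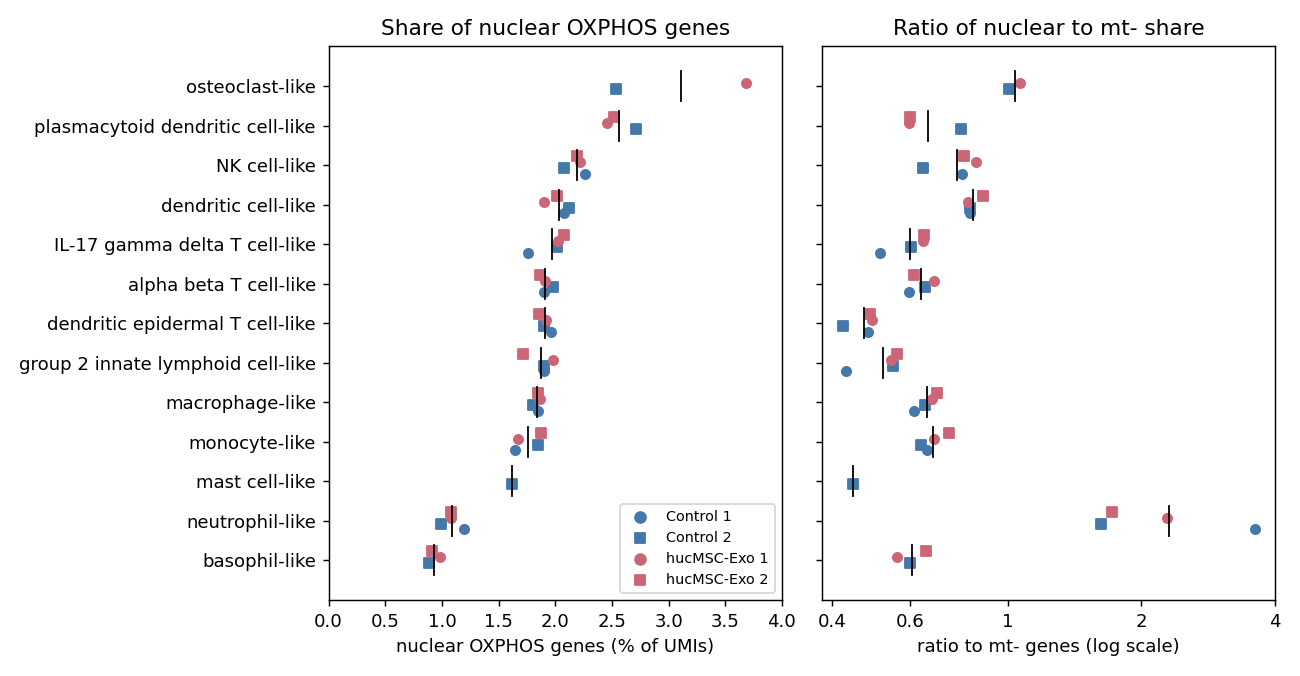
Left, percent of UMIs from the 88 nuclear oxidative phosphorylation genes per marker class and library; right, the ratio of that share to the share of the mt- genes on a log scale. Points are libraries with at least 10 cells of the class, vertical lines are means over libraries. Neutrophil-like cells sit at 1.09% on the left, below all classes but the basophil-like cells, and at the highest ratio, 2.31, on the right.

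The composition of the share by complex was much alike between classes. Complex I made up 24.4% (group 2 innate lymphoid cell-like) to 28.0% (dendritic epidermal T cell-like) of nuclear UMIs in classes with all 4 libraries, complex III 9.14 to 10.9%, complex IV 28.7 to 32.2% and complex V 31.2 to 34.6%. The ratio to the mt- genes varied more than the share did. It was 0.472 in dendritic epidermal T cell-like cells, the lowest of the classes with 4 libraries, where mt- genes took 4.06% of UMIs. It was 0.832 in dendritic cell-like cells, and in osteoclast-like cells it was 1.00 in Control 2 and 1.07 in hucMSC-Exo 1. The neutrophil-like cells stood apart at 3.61 in Control 1, 1.62 in Control 2, 2.28 in hucMSC-Exo 1 and 1.72 in hucMSC-Exo 2, mean 2.31. With no upper limit on the mt- share the neutrophil-like mean was 1.34, still above 1. With no upper limit on detected genes the ratio was 0.929 in Control 1, where 2 cells over that limit joined. The other libraries then had 1.44 (Control 2), 2.28 (hucMSC-Exo 1) and 1.69 (hucMSC-Exo 2).

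Depth inside a class moved with the share in most classes. When the cells of each library and class were divided at the median UMI count, the deeper cells had the higher share in 4 of 4 libraries for macrophage-like cells (1.91% against 1.69%), alpha beta T cell-like cells (2.00% against 1.73%), monocyte-like cells (1.81% against 1.65%) and IL-17 gamma delta T cell-like cells (2.09% against 1.76%). Neutrophil-like cells went the other way in 4 of 4 libraries (1.05% in the deeper and 1.14% in the shallower cells). They held 2042 UMIs at the median on average over libraries. Their ratio to the mt- genes was 3.86 in the shallower and 1.19 in the deeper cells of Control 2. It was 3.56 and 1.85 in hucMSC-Exo 1, 3.39 and 1.33 in hucMSC-Exo 2, but 3.40 and 3.79 in Control 1. Dendritic epidermal T cell-like cells, with 3530 the shallowest of the other classes that had 4 libraries, had 1.90% in their shallower cells, whose median was 2776 UMIs. Basophil-like cells, with 3 libraries, held 2897 UMIs at the median on average. They had 0.959% in their shallower and 0.912% in their deeper cells, with the deeper cells higher in 1 of 3 libraries. The part of depth in the differences between classes was not tested.

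Osteoclast-like cells, which expressed Ctsk, Acp5 and other genes of bone-resorbing cells, had the highest mean share of the member genes. Most of these cells lay outside the limit of 3000 detected genes. Only 55 were among the kept cells, 26 in Control 2, 21 in hucMSC-Exo 1, 7 in hucMSC-Exo 2 and 1 in Control 1. Their nuclear share was 2.54% in Control 2 and 3.68% in hucMSC-Exo 1, above the 1.81% and 1.86% of the macrophage-like cells of the same libraries. The 7 cells of hucMSC-Exo 2 had 1.89%, close to the 1.84% of its macrophage-like cells, and the cell of Control 1 had 2.50%. Plasmacytoid dendritic cell-like cells were above the kept osteoclast-like cells in Control 2 (2.71%, 11 cells) and hucMSC-Exo 2 (2.52%, 16 cells). They were below them in hucMSC-Exo 1 (2.46%, 11 cells) and Control 1 (2.17%, 4 cells). Gated without the limit, 166 osteoclast-like cells with more than 3000 detected genes joined 46 with fewer. The cells over the limit had shares of 5.03% in Control 1 (11 cells), 4.51% in Control 2 (101 cells), 4.50% in hucMSC-Exo 1 (47 cells) and 3.74% in hucMSC-Exo 2 (7 cells). Macrophage-like cells over the same limit had 1.92% (44 cells), 2.17% (66 cells), 2.20% (2 cells) and 2.19% (15 cells) in the same order, so the classes did not overlap in any library. Their depths differed: the osteoclast-like cells over the limit had median UMI counts of 21408 to 32963 per library and the macrophage-like cells 13151 to 14855. Within the kept osteoclast-like cells the libraries went opposite ways with depth: from 2.90% in the shallower to 2.34% in the deeper cells of Control 2, and from 3.44 to 3.79% in hucMSC-Exo 1. Whether cells over the limit include doublets was not tested.

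**Figure D2:**
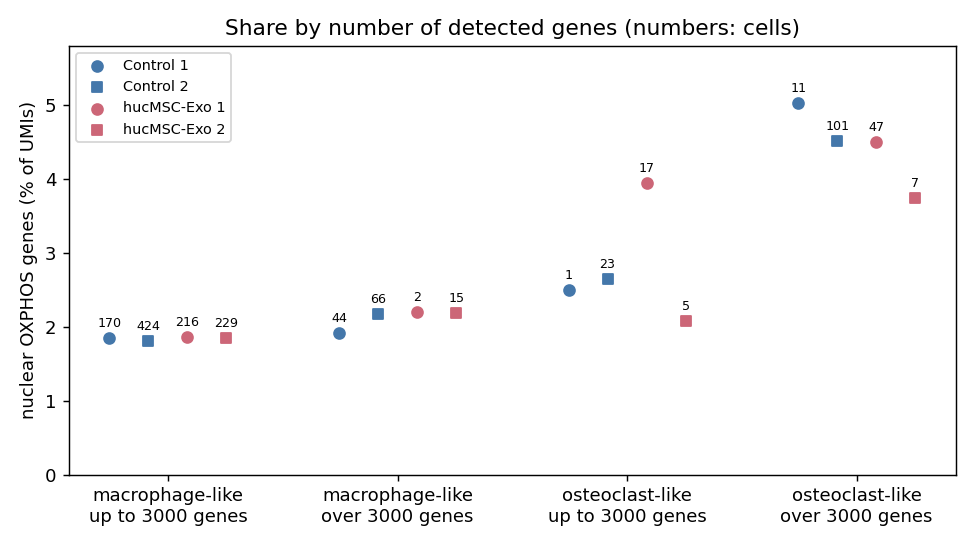
Percent of UMIs from the nuclear oxidative phosphorylation genes in macrophage-like and osteoclast-like cells with up to 3000 and with over 3000 detected genes, gated without the limit. Each point is 1 library and the number above it is its cell count; osteoclast-like cells over the limit lie between 3.74 and 5.03%, macrophage-like cells between 1.92 and 2.20%.

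Between these classes, member genes were tested over sums of UMIs per library and class, with edgeR's quasi-likelihood test across all genes and Benjamini-Hochberg adjustment (called at an adjusted p under 0.05), library as a block. All class comparisons came from a fit of 9505 genes in which 83 members passed the filter on low counts. Cox4i2, Cox7a1, Cox8b, Ndufaf1 and Ndufaf5 did not pass, with 34 to 273 UMIs each in all deposited cells. Fold changes here are relative to edgeR's TMM scaling. The same cells give the classes and the counts, and no member was used to set the classes.

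In the fit of kept cells, 17 of 83 members were higher in osteoclast-like than in macrophage-like cells and 0 were lower, where 2.66% of all genes were called higher and 6.98% lower. The median log2 fold change was 0.47 for members and -0.35 for all genes. This comparison rested on few cells: only Control 2 and hucMSC-Exo 1 held at least 10 kept osteoclast-like cells, so that it had 2 osteoclast-like sums. The members called numbered 33 without Control 1 and 10 without hucMSC-Exo 2, libraries that gave no such sum. Leaving out Control 2 or hucMSC-Exo 1 left 1 osteoclast-like sum, so the calls of those fits are not weighed here. The median log2 fold change of the members was 0.98 without Control 2 and 0.06 without hucMSC-Exo 1. With RLE scaling, which moved the all-gene median to -0.22, 39 were called, all higher. With no upper limit on detected genes, all 4 libraries held at least 10 osteoclast-like cells (12, 124, 64 and 12), and 70 of 86 members were called higher and 1 lower, where 13.4% of all 10963 genes were called higher and 23.2% lower. The member median was then 0.99 and the all-gene median -0.16. Of the osteoclast-like cells in this fit 166 lay over the limit and 46 under it, but of the macrophage-like cells 127 and 1039. The part of depth in this comparison was not tested.

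In the fit of kept cells, 7 of 37 complex I, 2 of 8 complex III, 1 of 15 complex IV and 7 of 17 complex V genes were called higher. None of the 6 assembly factors was, and their median log2 fold change was -0.55. The rise without the limit ran through every complex. Called higher were 29 of 37 complex I genes, 8 of 8 complex III genes, 12 of 16 complex IV genes, 16 of 17 complex V genes and 5 of 8 assembly factors. Ndufs7, a core subunit of complex I, had 342, 236, 238 and 277 CPM (UMIs per 1000000 UMIs of the class and library) in osteoclast-like cells, with the control libraries first and the hucMSC-Exo libraries last, each in numerical order. The macrophage-like cells had 78.9, 58.2, 49.8 and 68.1 CPM, all below (log2 fold change 1.76 ± 0.19 SE, adjusted p = 1.3e-10). Uqcr10, a small subunit of complex III, had 713 to 1102 CPM against 218 to 255 (1.70 ± 0.18, adjusted p = 9.7e-11). Atp5b, the catalytic beta subunit of complex V, had 1064 to 1626 CPM against 297 to 368 (1.61 ± 0.16, adjusted p = 2.2e-11). Each was higher in 4 of 4 libraries with no overlap. The member called lower was Ndufa4l2, a hypoxia-responsive paralogue of Ndufa4, at 0 to 7.95 CPM against 4.63 to 11.1 (-1.36 ± 0.46, adjusted p = 0.017). Its values rested on few UMIs, with 501 in all deposited cells and 0 CPM in the osteoclast-like cells of hucMSC-Exo 2. These 4 genes were chosen after their values were seen. By the naming rule in the kept cells, Atp5g3, a gene for the membrane c subunit of complex V, had 631 and 514 CPM in osteoclast-like cells of Control 2 and hucMSC-Exo 1 against 253 and 177 (1.19 ± 0.23, adjusted p = 0.00026). Atp5a1, the alpha subunit of complex V, had 596 and 617 CPM against 258 and 236 (1.12 ± 0.21, adjusted p = 0.00023).

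Other mitochondrial lists moved with the members in the fit without the limit. All 14 tricarboxylic acid cycle genes were called higher, as were 6 of 6 complex II and cytochrome c genes, 60 of 76 mitochondrial ribosome genes and 3 of 8 biogenesis genes, with 0 lower in these lists. The V-type ATPase, the proton pump of lysosomes and of the resorbing membrane, had 9 of 15 higher and 1 lower. Among glycolysis genes 4 of 16 were higher and 2 lower, and of the 13 mt- genes 5 were higher. Complex IV assembly genes had 4 of 12 higher, where 13.4% of all genes were. Fewer were called higher in the kept cells: 5 of 14 tricarboxylic acid cycle, 3 of 6 complex II and cytochrome c and 5 of 75 mitochondrial ribosome genes. There, 1 of 7 biogenesis and 4 of 15 V-type ATPase genes were higher, and 0 of the mt-, glycolysis and complex IV assembly genes. The gate for osteoclast-like cells used Atp6v0d2, itself a gene of the V-type ATPase.

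**Figure D3:**
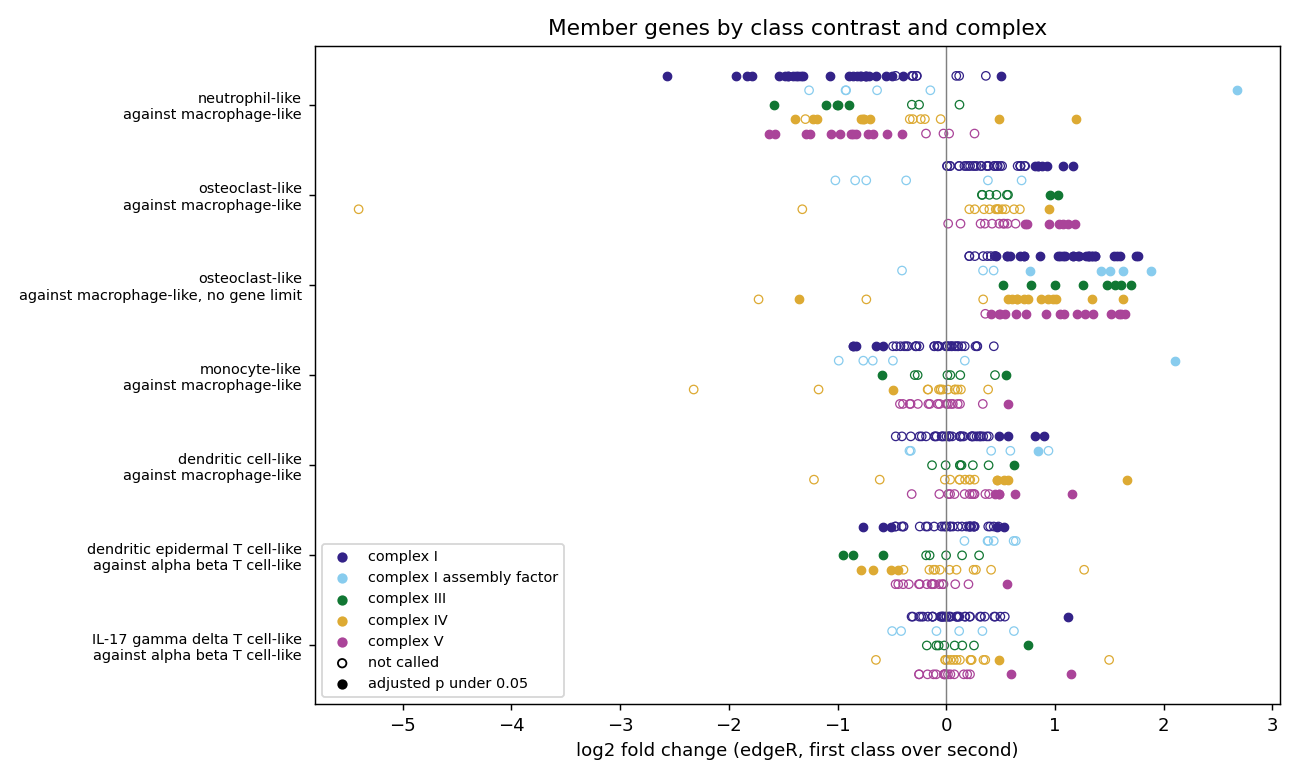
Log2 fold change of every tested member in each class comparison, from edgeR, with 1 row of points per complex; filled points were called at an adjusted p under 0.05 and open points were not. In neutrophil-like cells 52 of the members lie filled to the left of 0, and in osteoclast-like cells without the limit on detected genes 70 lie filled to the right. The open complex IV point near -5.4 is Cox6a2, with no UMI in kept osteoclast-like cells.

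In neutrophil-like cells 52 of 83 members (62.7%) were lower than in macrophage-like cells and 4 (4.82%) were higher, where 29.2% of all genes were called lower and 23.7% higher. The median log2 fold change of the members was -0.76, and that of all genes -0.20. Lower were 27 of 37 complex I genes, 5 of 8 complex III, 7 of 15 complex IV and 13 of 17 complex V genes, and 0 of 6 assembly factors. Keratinocyte and fibroblast markers took 0.239% of UMIs in neutrophil-like cells, more than the 0.088% in macrophage-like cells, and S100a8 with S100a9 took 9.77%. The part of these shares in the result was not tested. As a share of UMIs outside mt- and ribosomal protein genes, the members took 1.18% in neutrophil-like and 2.27% in macrophage-like cells.

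The member that fell most was Ndufc2, an accessory subunit of complex I (chromosome 7, 97400003 to 97407802, GRCm38, GENCODE M21). It had 54.0, 21.5, 38.2 and 31.1 CPM in neutrophil-like cells, in the same order of libraries. In macrophage-like cells it had 217, 213, 197 and 264 CPM, so the classes were far apart in every library (-2.56 ± 0.23, adjusted p = 1.9e-13). Ndufa9, a complex I subunit, had 3.58 to 9.0 CPM against 27.6 to 42.3 (-1.93 ± 0.32, adjusted p = 1.3e-06). Ndufa10, another, had 11.9 to 18.0 CPM against 56.3 to 77.5 (-1.83 ± 0.25, adjusted p = 2.3e-08). Their neutrophil-like values came from few UMIs: 1, 3, 1 and 11 for Ndufa9 and 2, 10, 3 and 22 for Ndufa10. The rises were few. Ndufa7, a complex I subunit, had 238 to 279 CPM against 201 to 242, and was higher in 4 of 4 libraries (0.51 ± 0.19, adjusted p = 0.023). Ndufaf7, a complex I assembly factor (chromosome 17, 78937136 to 78948052), had 36, 27.4, 10.9 and 19.4 CPM, from 4, 23, 2 and 25 UMIs. Macrophage-like cells had 7.83, 3.62, 0.704 and 6.83 CPM, from 10, 11, 1 and 10 UMIs (2.67 ± 0.40, adjusted p = 1.4e-07). Cox8a (0.49, adjusted p = 0.029) and Ndufa4l2 (1.19, adjusted p = 0.0088) were called higher but were so in only 3 of 4 libraries.

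The mt- genes fell further than the nuclear members in the same comparison. All 13 were lower, with a median log2 fold change of -2.07. mt-Co1, the catalytic subunit of complex IV, had 630, 1263, 732 and 1292 CPM in neutrophil-like cells and 6107, 5220, 4625 and 5584 CPM in macrophage-like cells. The ratio of nuclear to mt- UMIs was therefore higher in neutrophil-like cells for each complex: 3.63 for complex I, 2.79 for complex III, 1.34 for complex IV and 3.70 for complex V, against 1.23, 1.04, 0.356 and 0.957 in macrophage-like cells. Of the tricarboxylic acid cycle genes 8 of 14 were lower, and of the mitochondrial ribosome genes 41 of 75 were lower and 1 higher. Glycolysis genes went the other way, with 12 of 16 higher and 1 lower. Pfkl, the liver-type phosphofructokinase, had 43.7 to 92.4 CPM against 18.3 to 24.3 (2.09 ± 0.24, adjusted p = 1.9e-10). Slc2a3, a glucose transporter, had 297 to 385 CPM against 0 to 2.30. Nrf1 (1.26 ± 0.30, adjusted p = 0.00043) and Polg, the mitochondrial DNA polymerase (1.17 ± 0.33, adjusted p = 0.0026), were the 2 of 7 biogenesis genes called higher, though Nrf1 was so in only 3 of 4 libraries (16.4 CPM against 33.1 in hucMSC-Exo 1). Of the 44 members lower here that had a promoter window, 11 (25%) held either core; of the 25 tested and not lower, 11 (44%) did.

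Monocyte-like cells differed little from macrophage-like cells. Of 83 members 3 were higher and 7 lower, where 5.63% of all genes were higher and 9.48% lower, so the share of members called was close to that of all genes. Ndufaf7 was again the largest rise, with 59.8, 7.57, 12.5 and 19.9 CPM from 11, 5, 5 and 19 UMIs (2.10 ± 0.42, adjusted p = 0.0002). It was followed by Atp5d, the delta subunit of complex V (0.57 ± 0.20, adjusted p = 0.041), and Uqcrfs1, the Rieske iron-sulfur protein of complex III (0.55 ± 0.19, adjusted p = 0.043). The falls were led by the complex I genes Ndufa5 (30.3 to 65.2 CPM against 61.2 to 86.1), Ndufa12 (35.1 to 65.2 CPM against 76.5 to 85.9) and Ndufab1, the mitochondrial acyl carrier protein (52.6 to 69.1 CPM against 102 to 121). Their log2 fold changes were -0.86, -0.86 and -0.83, with adjusted p of 0.0078, 0.0024 and 0.0041. The count of members called fell to 4 without Control 2, 6 without hucMSC-Exo 1 and 4 without hucMSC-Exo 2. Glycolysis genes were higher in 7 of 16 cases, and V-type ATPase genes lower in 6 of 15.

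In dendritic cell-like cells 16 members were higher than in macrophage-like cells and 0 lower, where 14.7% of all genes were higher and 18.7% lower. As a share of the 83 members tested, the 16 (19.3%) were near the background of higher genes. Atp5d had 502, 533, 489 and 511 CPM in the same order of libraries, and macrophage-like cells had 260, 250, 254 and 215 CPM. The classes were apart in every library (1.15 ± 0.19, adjusted p = 3.6e-06). Ndufa6, a complex I subunit, had 361 to 413 CPM against 211 to 235 (0.90 ± 0.18, adjusted p = 8.7e-05). Cox6b2, an isoform of a complex IV subunit best known from testis, had 10.9, 21.7, 36.1 and 20.5 CPM against 7.83, 5.92, 14.1 and 4.10 (1.67 ± 0.40, adjusted p = 0.00078), from 62 UMIs in dendritic cell-like cells in all. Under RLE scaling, which moved the all-gene median from -0.08 to -0.25, 6 members were higher and 5 lower, and DESeq2 called 11 higher and 5 lower. The members called numbered 6 without Control 2 and 5 without hucMSC-Exo 2. The V-type ATPase genes, in contrast, were lower in 10 of 15 cases.

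Among the T cell classes, dendritic epidermal T cell-like cells, the gamma delta T cells resident in mouse epidermis, were compared with alpha beta T cell-like cells. They had 3 members higher (3.61% of 83) and 10 lower (12.0%), where 16.5% of all genes were higher and 16.3% lower. Both shares of members lay below those of all genes. Lower were 3 of 8 complex III genes, 4 of 15 complex IV genes and 3 of 37 complex I genes, and 0 of 17 complex V genes. Uqcrfs1 had 87.4, 64.1, 82.5 and 56.7 CPM against 105, 140, 146 and 130 CPM, lower in every library (-0.95 ± 0.19, adjusted p = 7.4e-05). Uqcrh, the hinge protein of complex III, had 514 to 644 CPM against 917 to 999 (-0.86 ± 0.17, adjusted p = 4.1e-05). Cox5a, a complex IV subunit, had 205 to 244 CPM against 331 to 365 (-0.79 ± 0.17, adjusted p = 0.00018). Higher were Atp5md, a small subunit of complex V (0.56 ± 0.22, adjusted p = 0.040), Ndufc1 (0.53 ± 0.20, adjusted p = 0.036) and Ndufa13 (0.47 ± 0.18, adjusted p = 0.044), both of complex I. The split depended on the scaling: with RLE factors, which moved the all-gene median from 0.01 to 0.14, 11 members were higher and 6 lower, and DESeq2 called 17 higher and 10 lower. The members called numbered 7 without Control 2 and 5 without hucMSC-Exo 2. Of the mt- genes 5 of 13 were higher and 0 lower, and of the glycolysis genes 12 of 16 were lower and 1 higher.

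IL-17 gamma delta T cell-like cells had 5 members higher than alpha beta T cell-like cells and 0 lower, where 6.09% of all genes were higher and 5.87% lower. The 5 (6.02% of 83) were at the background. Atp5md had 627, 1072, 1089 and 834 CPM against 295, 440, 537 and 448 CPM, higher in every library (1.15 ± 0.22, adjusted p = 8.2e-05). Ndufa1, a membrane subunit of complex I encoded on the X chromosome, had 189, 567, 334 and 577 CPM against 186, 235, 188 and 203 CPM, and lay close to the other class in Control 1 (1.12 ± 0.21, adjusted p = 8.0e-05). Uqcrfs1 had 143 to 241 CPM against 105 to 146 (0.75 ± 0.18, adjusted p = 0.0025). The members called numbered 3 without Control 1, 2 without Control 2 and 3 without hucMSC-Exo 2.

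Several complex IV subunits have a gene used in most tissues and another used in few, and the rare partners were nearly silent, with 1 exception. Cox6a2, the form of subunit VIa of heart and skeletal muscle (chromosome 7, 128205435 to 128206387), had 1151 CPM in the plasmacytoid dendritic cell-like cells of Control 2, 1904 CPM in those of hucMSC-Exo 1 and 1030 CPM in those of hucMSC-Exo 2, from 106, 109 and 119 UMIs in 11, 11 and 16 cells. In every other class and library with at least 10 cells it had 0 to 10.3 CPM, except for 54.5 CPM (9 UMIs) in the NK cell-like cells of hucMSC-Exo 2. These cells thus held 334 of the 482 Cox6a2 UMIs of all kept cells. Cox6a2 took no part in their gate. Its common partner Cox6a1 had 227 to 277 CPM in plasmacytoid dendritic cell-like cells and 200 to 268 CPM in macrophage-like cells. No test was made of this difference, since the gene was picked out for it.

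**Figure D4:**
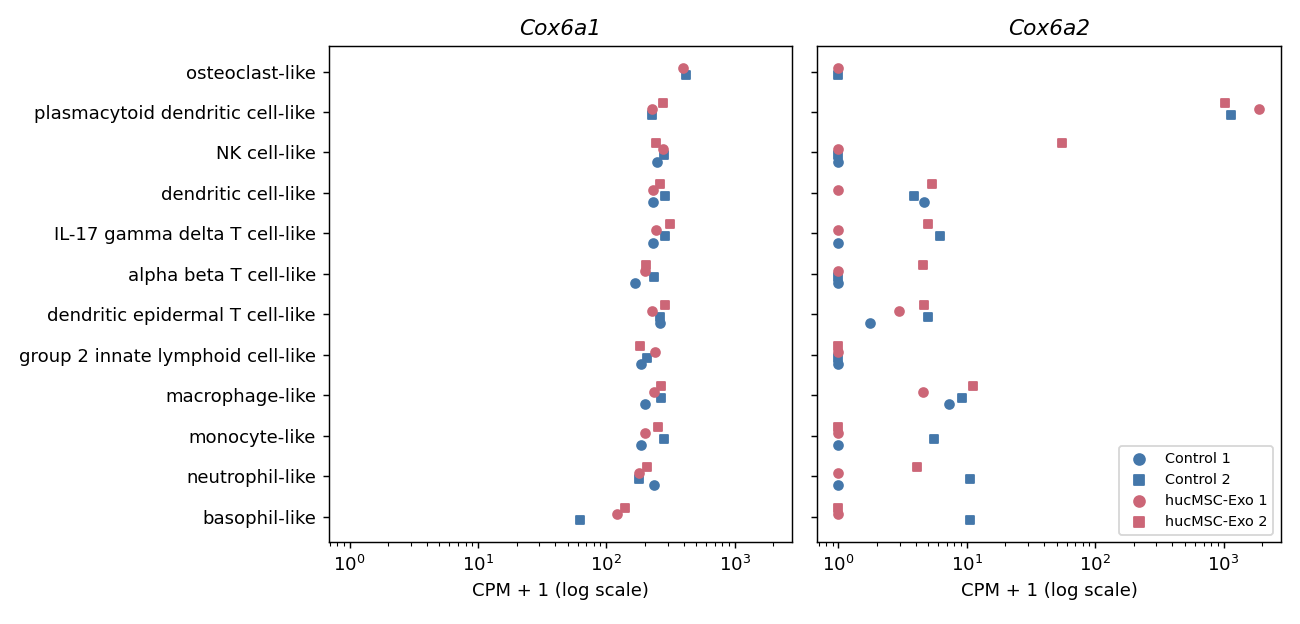
CPM plus 1, on log scales, of Cox6a1 and Cox6a2 per class and library, for classes with at least 10 cells in a library. Cox6a1 lies within 1 decade in all classes, while Cox6a2 lies above 1000 CPM in plasmacytoid dendritic cell-like cells and at or below 54.5 CPM elsewhere.

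The other rare forms stayed low. Cox4i2, the form of subunit IV known from lung, had 21 UMIs in all kept cells, Cox8b 36, Cox7a1 146, Cox6b2 175 and Ndufa4l2 340. Cox4i1 had 28395, Cox8a 24566, Cox7a2 10882, Cox6b1 15521 and Ndufa4 9331. Cox7b2 and Cox8c had 0 UMIs. The genes Atp5g1, Atp5g2 and Atp5g3, which encode the same mature c subunit of complex V, were expressed together in every class, at 241, 401 and 203 CPM in macrophage-like cells and at 91.1, 114 and 48.9 CPM in neutrophil-like cells (means over 4 libraries). In kept osteoclast-like cells the means were 545, 668 and 572 CPM. Values of different genes are counts of 3′ ends and rank no gene above another.

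The study asked how hucMSC-Exosomes change the cells of the wound, and no member that passed the filter on low counts (70 to 87 per comparison) was called between the hucMSC-Exo group and the control group. With edgeR, 0 members were called in all kept cells (0.0% of 12117 genes), and 0 in neutrophil-like, macrophage-like, monocyte-like, dendritic cell-like, alpha beta T cell-like, dendritic epidermal T cell-like and IL-17 gamma delta T cell-like cells (0.0% of all genes in each, but 0.0157% in alpha beta T cell-like cells). That share was 1 gene, Cd14, named after its value was seen. At an unadjusted p under 0.05 there were 2 members in dendritic epidermal T cell-like cells and 0 in the other 7 comparisons. With DESeq2 0 members were called in all of them. Osteoclast-like cells could be tested only without the limit on detected genes, where 0 of 81 members were called (median log2 fold change -0.22, 7 of 81 above 0). Control 1 and hucMSC-Exo 2 held only 12 such cells each. The members' share of UMIs overlapped there, at 4.99 and 4.38% in the control group and 4.42 and 3.54% in the hucMSC-Exo group. In simulated counts like those of all kept cells, the test recovered 73.5% of 4-fold and 4.21% of 2-fold changes, so moderate changes would mostly not be detectable with 2 mice per group.

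The members nearest to the threshold are given as not called. Ndufs6, a complex I subunit, had 134 and 115 CPM in dendritic epidermal T cell-like cells of the control group and 80.5 and 86.8 CPM in those of the hucMSC-Exo group (adjusted p = 0.987 with edgeR). Atp5md had 380 and 709 CPM against 856 and 841 CPM in the same cells. It had 351 and 501 CPM against 648 and 534 CPM in all kept cells and 295 and 440 CPM against 537 and 448 CPM in alpha beta T cell-like cells, with Control 1 the lowest library each time. Ndufs1, the largest subunit of complex I, had 56.4 and 24.5 CPM against 19.0 and 21.7 CPM in IL-17 gamma delta T cell-like cells, where Ndufa7 had 149 and 181 CPM against 203 and 210 CPM. In neutrophil-like cells Ndufa5 had 18.0 and 13.1 CPM against 43.7 and 24.1 CPM and Uqcrb had 45.0 and 65.6 CPM against 82.0 and 88.5 CPM. In monocyte-like cells Ndufs3 had 38.1 and 46.9 CPM against 52.6 and 66.0 CPM, and Ndufb1-ps 413 and 549 CPM against 529 and 648 CPM. In dendritic cell-like cells Ndufb10 had 182 and 200 CPM against 130 and 149 CPM, and Uqcrc1 98.2 and 67.3 CPM against 41.0 and 64.5 CPM. In macrophage-like cells Ndufaf8 had 43.9 and 42.4 CPM against 30.3 and 39.0 CPM, and Ndufs1 20.4 and 26 CPM against 20.4 and 15 CPM. In all kept cells Ndufaf8 had 47.7 and 36.6 CPM against 31.3 and 31.4 CPM, and in alpha beta T cell-like cells Atp5g2 had 509 and 475 CPM against 381 and 421 CPM. None of these differences was called, with an adjusted p of 0.987 or above from edgeR in each case.

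Taken as a share of UMIs, the members lay apart by group in 2 classes of the 9 with 4 libraries. In IL-17 gamma delta T cell-like cells the share was 1.76% and 2.02% in the control group and 2.03% and 2.07% in the hucMSC-Exo group. The counting intervals (95%, Poisson) of the nearest libraries overlapped, 1.99 to 2.05% in Control 2 and 1.99 to 2.06% in hucMSC-Exo 1. In dendritic cell-like cells the share was 2.08% and 2.13% in the control group and 1.90% and 2.01% in the hucMSC-Exo group, with 2.03 to 2.14% in Control 1 and 1.98 to 2.05% in hucMSC-Exo 2. Depth was apart in the same way: dendritic cell-like cells had median UMI counts of 10072 and 11213 in the control group and 8358 and 9602 in the hucMSC-Exo group. The part of depth in this difference was not tested. With no upper limit on detected genes the groups overlapped in IL-17 gamma delta T cell-like cells, where Control 2 (2.04%) lay above hucMSC-Exo 1 (2.03%). The ratio of nuclear to mt- UMIs was higher in both hucMSC-Exo libraries than in both control libraries in 5 of the 9 classes, with no test made. Its means were 0.644 against 0.558 in IL-17 gamma delta T cell-like, 0.821 against 0.715 in NK cell-like, 0.490 against 0.454 in dendritic epidermal T cell-like, 0.682 against 0.632 in macrophage-like and 0.708 against 0.647 in monocyte-like cells. In neutrophil-like cells the groups overlapped, with means of 2.00 against 2.61. With no upper limit on detected genes the ratio overlapped in NK cell-like cells (0.838 in Control 1, 0.805 in hucMSC-Exo 2). It then also overlapped in monocyte-like cells (0.681 in Control 1, 0.677 in hucMSC-Exo 1) and dendritic epidermal T cell-like cells (0.487 in Control 1 and in hucMSC-Exo 2). Gene by gene, 16 of 77 members in IL-17 gamma delta T cell-like cells were above both control libraries in both hucMSC-Exo libraries and 5 were below, against 13.4% and 17% of all genes. Of 77 members in dendritic cell-like cells, 3 were above and 30 below (39.0%), against 13.6% and 16.1% of all genes. In macrophage-like cells 7 of 81 were above and 8 below, against 8.77% and 11.2%. In all kept cells 5 of 87 were above and 15 below, against 7.84% and 16.8%. By the sign of the fold change, 28.6% of members were above 0 in dendritic cell-like cells. The figure was 39.7% in alpha beta T cell-like and 40.0% in dendritic epidermal T cell-like cells. It was 59.3% in macrophage-like, 67.1% in neutrophil-like, 74.7% in monocyte-like and 81.8% in IL-17 gamma delta T cell-like cells. Of all genes 49.0 to 51.4% were above 0 in these classes. Median log2 fold changes of the members were 0.15 in IL-17 gamma delta T cell-like, -0.10 in dendritic cell-like and 0.05 in macrophage-like cells, against 0.01 for all genes in each. They rested on single libraries: the median in IL-17 gamma delta T cell-like cells was 0.05 without Control 1 and 0.28 without Control 2, that in dendritic cell-like cells was 0.01 without Control 2, and that in macrophage-like cells was -0.02 without Control 2 and -0.03 without hucMSC-Exo 1. In neutrophil-like cells the median was 0.15 (47 of 70 members above 0), but -0.10 (25 of 74) with no upper limit on detected genes. In all kept cells it was 0.02, but -0.06 without that limit, -0.03 without Control 1 and -0.04 without hucMSC-Exo 1.

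**Figure D5:**
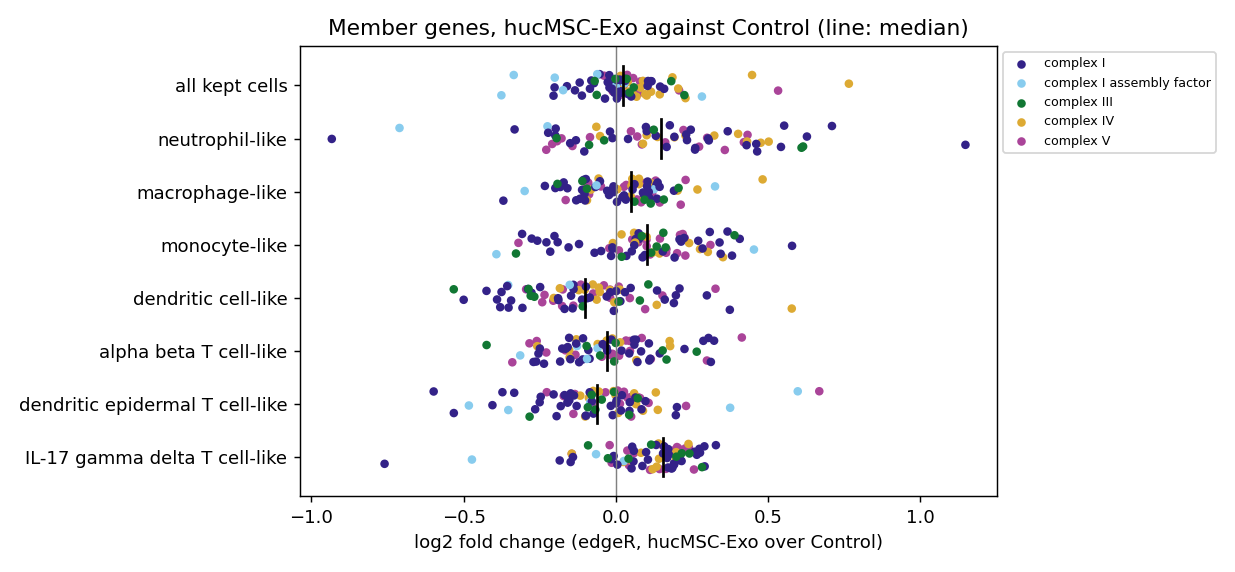
Log2 fold change of each tested member between the hucMSC-Exo and the control group, per class, coloured by complex, with the median as a line. No point was called; the medians lie between -0.10 in dendritic cell-like and 0.15 in IL-17 gamma delta T cell-like and neutrophil-like cells, and that of neutrophil-like cells turns to -0.10 with no upper limit on detected genes.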

How the data were processed

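Droplet single-cell RNA-seq of mouse periwound skin was used in 4 libraries, 1 mouse per library. The authors deposited a matrix of UMI counts per gene and cell for each library, made, per the labels, with Cell Ranger 6.1.2 on mm10. The study removed doublets with DoubletFinder. In the deposited counts, Scrublet (Scanpy 1.11.5) called 3, 11, 4 and 12 cells, too few to treat as a working call.

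The cell filter kept those between 200 and 3000 detected genes whose mt- share did not pass 10%. A class needed at least 3 of its markers, a margin of 2 bits over the next class and at most 1% skin marker UMIs. The gate was settled after marker genes had been looked at, and it used no member: Cox6a2 is on the marker list of plasmacytoid dendritic cells but was left out of the gate. UMIs were summed per library and class (at least 10 cells). Class comparisons used edgeR 4.0.16 in R 4.3.3 (quasi-likelihood test, TMM, filterByExpr, library block), with Benjamini-Hochberg adjustment over all genes. Comparisons of hucMSC-Exo with control used group only, within a class. DESeq2 1.42.0, RLE factors, other filters, a stricter gate and omitted libraries were alternatives. CPM values are UMIs per 1000000 summed UMIs. Intervals cover counting error only.

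The members and lists were chosen with earlier results of these data known. In each class comparison, the called members that moved the same way in every library were named, up to 3 in each direction by size of change, besides all paralogue and isoform members. The values of 1 gene that the rule named are not reported here. In comparisons of the groups, the 2 members with the smallest p were named. On simulated data, the test recovered 49.4% of 2-fold and 94.4% of 4-fold changes between neutrophil-like and macrophage-like cells (8459 genes). Positions came from GENCODE M21 (GRCm38), by symbol, for 87 of 88 members. Members that overlap other genes on their strand, such as Ndufc2, Cox4i1, Ndufa13 and Ndufb8, can lose reads in counting.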

Additional observations from a re-analysis of the deposited data

Results flagged for a closer look

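Among the classes present in every library, the nuclear oxidative phosphorylation share did not overlap between the groups in 2, and in opposite directions. In the others the groups overlapped. With 2 libraries per group and the same mice behind every class, these separations were not tested. In IL-17 gamma delta T cell-like cells the mean was 2.05% of UMIs in the hucMSC-Exo group and 1.89% in the control group, a difference of 0.159 percentage points. In dendritic cell-like cells it was 1.96% against 2.10%, a difference of -0.147 percentage points. The hucMSC-Exo libraries of dendritic cell-like cells were also the shallower ones, with median UMI counts of 8358 and 9602 against 10072 and 11213. The part of depth was not tested. The difference between the 2 classes was not tested. With no upper limit on detected genes the groups overlapped in IL-17 gamma delta T cell-like cells (1.74 and 2.04% in the control group, 2.03 and 2.10% in the hucMSC-Exo group).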

How the results depend on the processing

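Members called in neutrophil-like cells stayed within 47 to 60 under every alternative run (56 as reported). In osteoclast-like cells 46 were called with DESeq2, 39 with RLE factors, 35 without mt- and ribosomal protein genes, 71 with no gene limit, and 2 to 41 with 1 library left out (17 as reported). Both ends of that osteoclast-like range came from fits with 1 osteoclast-like sum, without hucMSC-Exo 1 and without Control 2. Such fits cannot show how stable the calls are. Their member medians were 0.06 and 0.98. In monocyte-like cells DESeq2 called 19, and 4 to 7 were called with 1 library left out (10 as reported). In dendritic cell-like cells 9 were called with no low count filter, 10 with no gene limit, 7 with the stricter gate and 5 to 14 with 1 library left out (16 as reported). In dendritic epidermal T cell-like cells DESeq2 called 27, no low count filter gave 6, and 5 to 13 were called with 1 library left out (13 as reported). In IL-17 gamma delta T cell-like cells DESeq2 called 8, no low count filter and no gene limit gave 3 each, and 2 to 4 were called with 1 library left out (5 as reported). Without the library as a replicate block the calls were 6 in monocyte-like, 9 in dendritic cell-like, 7 in dendritic epidermal T cell-like and 3 in IL-17 gamma delta T cell-like cells. The share of all kept cells was 2.16% with no gene limit, 1.76% as a mean over cells and 2.45% of UMIs outside mt- and ribosomal protein genes. The neutrophil-like share was 1.21% and 1.18% under the first and last of these, and the osteoclast-like share 4.33% under both. The ratio to mt- genes was 0.700 in all kept cells with no gene limit. In neutrophil-like cells it was 1.34 with no mt- limit, and 0.929 in Control 1 with no gene limit. In osteoclast-like cells it was 0.908 with no mt- limit, 1.13 with no gene limit and 1.11 as a mean over cells. The cause of these shifts was not tested. Replicate numbers are shared between the groups, but with 2 pairs (r = 0.186 between deviations over 12117 genes) they mark no stated pairing. With the replicate number as a replicate block, 0 members were called between the groups in every class. The balance of higher and lower members turned in dendritic epidermal T cell-like cells, from 3 higher and 10 lower to 11 and 6 with RLE factors and 17 and 10 with DESeq2. Between the groups, the member median in neutrophil-like cells turned from 0.15 to -0.10 with no gene limit, and that in all kept cells from 0.02 to -0.06.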
